A study of Mus musculus with 24 samples.

Results

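DNA replication and S phase genes were described as 46 listed mouse genes, chosen by symbol and function, with earlier results of these data known: origin licensing, replisome, nucleotide supply and chromatin assembly genes with the regulators of S phase entry. All 46 were found among the 24421 genes of the count table, and all 46 were among the 13761 genes tested. Polyadenylated RNA came from MIN6 cells, a mouse insulinoma line that models the pancreatic beta cell and divides in culture. The cells had been given either a control plasmid, for GFP alone, or a plasmid for EIF2A joined to GFP, and were kept in medium with 22.2 mM glucose. They received 1 µM thapsigargin for 1 h or for 3 h, or DMSO as the vehicle, written here as 0 h. Each of the 6 groups had 4 libraries, 24 in all, and the groups are called here by the label GFP or EIF2A and the time. Thapsigargin blocks the pump that fills the endoplasmic reticulum with calcium and so causes stress there. EIF2A is a translation initiation factor. No vehicle group of 1 h or 3 h was analysed here, and an effect of thapsigargin therefore cannot be told apart from one of elapsed time or handling. The labels do not say whether the 4 libraries of a group came from separate cultures, so that p-values measure the spread between these libraries, which may be technical.

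Before a cell copies its DNA, the origin recognition complex, Cdc6 and Cdt1 load the Mcm2 to Mcm7 helicase ring on origins, a step called licensing, which geminin (Gmnn) blocks by binding Cdt1. At S phase entry Cdc45 and the GINS complex turn the ring into the running CMG helicase, polymerase alpha with primase starts each strand, and polymerases delta and epsilon extend it with the clamp Pcna, which the RFC complex loads. Most of these genes are transcribed by E2F factors in late G1, and their mRNA levels are read widely as a sign of proliferation.

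Promoter windows from RefSeq (build GRCm38.p6, 250 bases before to 50 bases after an annotated start) were given for 37 of the 46 genes, in 43 windows. The E2F motif was searched as TTTNGCGC on both strands, and overlapping matches were counted separately. Other forms of the motif were not searched, so that a window without a match may still hold one of them. It stood in the windows of 12 of the 37 genes (32.4%), against 2.9% of 10446 tested genes with a window and 1.38% of all 32851 windows. The CCAAT box (CCAAT, both strands) stood in 23 genes (62.2%, against 43.2% of tested genes). The element bound by the stress factor ATF4 (TGATGNAA, both strands) stood in 1 gene, Fen1 (2.7%, against 2.68%). Of the genes whose levels are given library by library by a set rule, 5 have a window with an E2F match, and these windows are printed. All 5 genes rose at 3 h, but Rfc3, Mcm7 and Uhrf1 were in that set for their small p. Their rise thus follows from the choice and says nothing of the match. Capitals mark the E2F matches, and each sequence reads 5′ to 3′ on the strand of the gene. Cdt1 lies on the plus strand (chr8:122567765-122568064), Mcm5 on the plus strand (chr8:75109259-75109558), Mcm7 on the minus strand (chr5:138171834-138172133), Rfc3 on the minus strand (chr5:151651159-151651458) and Uhrf1 on the plus strand (chr17:56304063-56304362).
Cdt1: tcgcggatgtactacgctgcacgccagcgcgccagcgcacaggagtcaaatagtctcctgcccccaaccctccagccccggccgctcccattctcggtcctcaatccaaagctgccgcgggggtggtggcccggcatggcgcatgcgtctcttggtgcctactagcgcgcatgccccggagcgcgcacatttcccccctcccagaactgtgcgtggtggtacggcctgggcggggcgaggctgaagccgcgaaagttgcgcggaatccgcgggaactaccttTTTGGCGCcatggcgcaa
Mcm5: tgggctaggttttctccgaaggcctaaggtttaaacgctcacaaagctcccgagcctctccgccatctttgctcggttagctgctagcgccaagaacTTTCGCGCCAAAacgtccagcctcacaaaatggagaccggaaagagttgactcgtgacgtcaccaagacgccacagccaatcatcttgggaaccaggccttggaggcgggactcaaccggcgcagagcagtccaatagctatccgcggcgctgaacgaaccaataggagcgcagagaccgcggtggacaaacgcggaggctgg
Mcm7: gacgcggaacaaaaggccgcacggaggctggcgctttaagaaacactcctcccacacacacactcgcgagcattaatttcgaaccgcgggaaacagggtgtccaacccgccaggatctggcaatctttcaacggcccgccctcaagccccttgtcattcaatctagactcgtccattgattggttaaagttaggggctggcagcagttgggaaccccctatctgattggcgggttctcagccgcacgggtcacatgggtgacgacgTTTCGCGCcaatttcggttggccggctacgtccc
Rfc3: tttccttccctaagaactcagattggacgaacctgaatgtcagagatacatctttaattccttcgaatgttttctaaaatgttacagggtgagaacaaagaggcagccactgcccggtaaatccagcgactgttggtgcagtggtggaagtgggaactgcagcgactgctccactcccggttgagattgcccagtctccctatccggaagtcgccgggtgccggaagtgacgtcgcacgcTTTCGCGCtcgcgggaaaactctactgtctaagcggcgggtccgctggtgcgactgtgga
Uhrf1: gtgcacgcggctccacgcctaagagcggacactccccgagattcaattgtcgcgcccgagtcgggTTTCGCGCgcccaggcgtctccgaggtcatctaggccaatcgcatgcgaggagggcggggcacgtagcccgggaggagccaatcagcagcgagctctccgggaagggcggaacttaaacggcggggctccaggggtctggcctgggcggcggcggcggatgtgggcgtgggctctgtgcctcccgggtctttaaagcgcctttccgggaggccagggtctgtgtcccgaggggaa
Mcm5 holds 2 overlapping matches, 1 on each strand, and the other 4 windows hold 1 each. A match is a description of these letters and says nothing of binding.

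Libraries labelled GFP held 16.73 to 22.22 M (mega) counts in genes and those labelled EIF2A 10.52 to 22.07 M. A level of 1 CPM, counts scaled to a total of 1 M, stands for 10.5 counts at the lowest depth. The replication genes were well covered: the rarest had 3018 counts over all libraries. The reads carry no molecular identifiers. Values after ± are SD for shares of counts and SE of the fit for log2 fold changes, and rest on the spread between libraries. Beta cell markers such as Ins1, Ins2 and Iapp were present in every library, and the 10 together summed to 40029 to 101550 CPM. Eif2a, the gene on the plasmid, went against the labels in replicate 1. Libraries labelled GFP held 269, 361 and 358 CPM of it at 0, 1 and 3 h in replicate 1 and 77.8 to 102 CPM in replicates 2 to 4, while libraries labelled EIF2A held 80.3, 96.9 and 104 CPM in replicate 1 and 134 to 209 CPM in the others. No library was moved to another group, the labels are used as given, and results that rest on replicate 1 are stated with and without it. The lead values for thapsigargin are averages over both labels, and their calls rest on the spread within the groups as labelled.

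Thapsigargin was followed by higher mRNA of most replication genes. Together the 46 genes took 0.647% ± 0.0131 of all counts at 0 h, 0.738% ± 0.0323 at 1 h and 0.886% ± 0.0539 at 3 h in libraries labelled GFP, and 0.642% ± 0.0280, 0.736% ± 0.0443 and 0.929% ± 0.110 in those labelled EIF2A (SD, n = 4). At 3 h, averaged over both labels, 31 of the 46 rose, 2 fell (Fen1 and Ccne2) and 13 were not called (edgeR quasi-likelihood test, Benjamini-Hochberg adjusted p under 0.05). Over all genes tested, 26.0% rose and 23.6% fell in that comparison. The median log2 fold change was 0.39 for the 46 genes and -0.01 for all genes. At 1 h, 17 of the 46 rose and 0 fell, against 13.1% and 9.74% of all genes, with medians of 0.17 and -0.01. TMM scaling, used here, gave 3584 rising and 3246 falling genes at 3 h over all genes, and scaling by library totals gave 4801 and 2116. The median of all genes at 3 h was then 0.13, and 36 of the 46 rose and 1 fell. The shares of counts above are likewise on the scale of library totals, so that they carry this shift of all genes. In bulk RNA a larger share of cells in S phase and more mRNA per cell cannot be told apart.

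Replicate 1 of each group had the smallest share of counts in these genes. At 3 h it stood at 0.806% against 0.906% to 0.921% in replicates 2 to 4 labelled GFP, and at 0.763% against 0.98% to 0.988% in those labelled EIF2A. The shares at 3 h lay above every share at 0 h under either label, replicate 1 included. Within a label, same-numbered libraries deviated together over all genes, with a correlation over 0.1 in 24 of 24 pairs across times. Without replicate 1 this held in 13 of 18, and the median correlation was 0.16 rather than 0.74. Libraries of different numbers ran from -0.85 to 0.75 (median -0.17), and without replicate 1 from -0.45 to 0.29 (median -0.06). The deviations were taken from group means that include replicate 1, so that the 24 of 24 says little about replicates 2 to 4. The labels do not say that a number marks a culture or day, so that setting these libraries in pairs rests on these same data. In such pairs 28 genes were higher at 1 h than at 0 h in all 8 pairs and 32 were higher at 3 h, against 20.4% and 28.2% of all genes tested. Lower in all 8 pairs were 6 at 1 h and 2 at 3 h, against 21.1% and 28.3%. A fit that keeps the pairs as a block called 30 genes as risen and 6 as fallen at 1 h (27.8% and 29.2% of all genes). At 3 h the blocked fit called 37 and 4 (37.6% and 37.8%). Without replicate 1, 29 rose and 7 fell at 1 h (26.4% and 26.7%), and 36 rose and 3 fell at 3 h (36.1% and 35.6%). Without replicate 2, 3 or 4, most calls at 1 h were lost: 6, 6 and 9 genes rose (5.54%, 5.17% and 7.91% of all genes). At 3 h 26, 27 and 29 then rose (19.5%, 19.1% and 21.2%). The 17 genes called at 1 h and the 33 called at 3 h as labelled were called in the same direction both with the block and without replicate 1. Those fits reuse the same libraries and called more of all genes than the fit as labelled, so that this agreement was likely beforehand. The share of all genes whose calls were kept is not given.

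**Figure D1:**
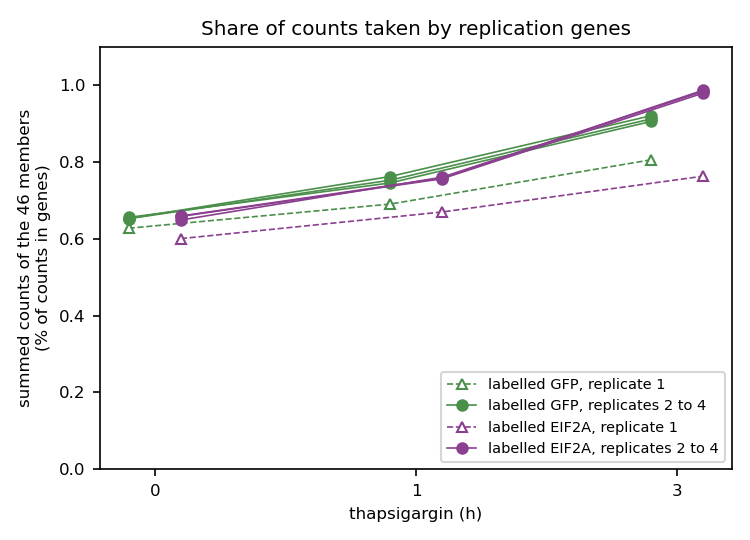
Share of the counts in genes taken by the 46 replication genes (y axis, percent) in each of the 24 libraries, by time of thapsigargin in h (x axis); lines join same-numbered libraries of a label, and open triangles are replicate 1. Each of the 8 lines is highest at 3 h, with replicate 1 at 0.806% (GFP) and 0.763% (EIF2A).

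**Figure D2:**
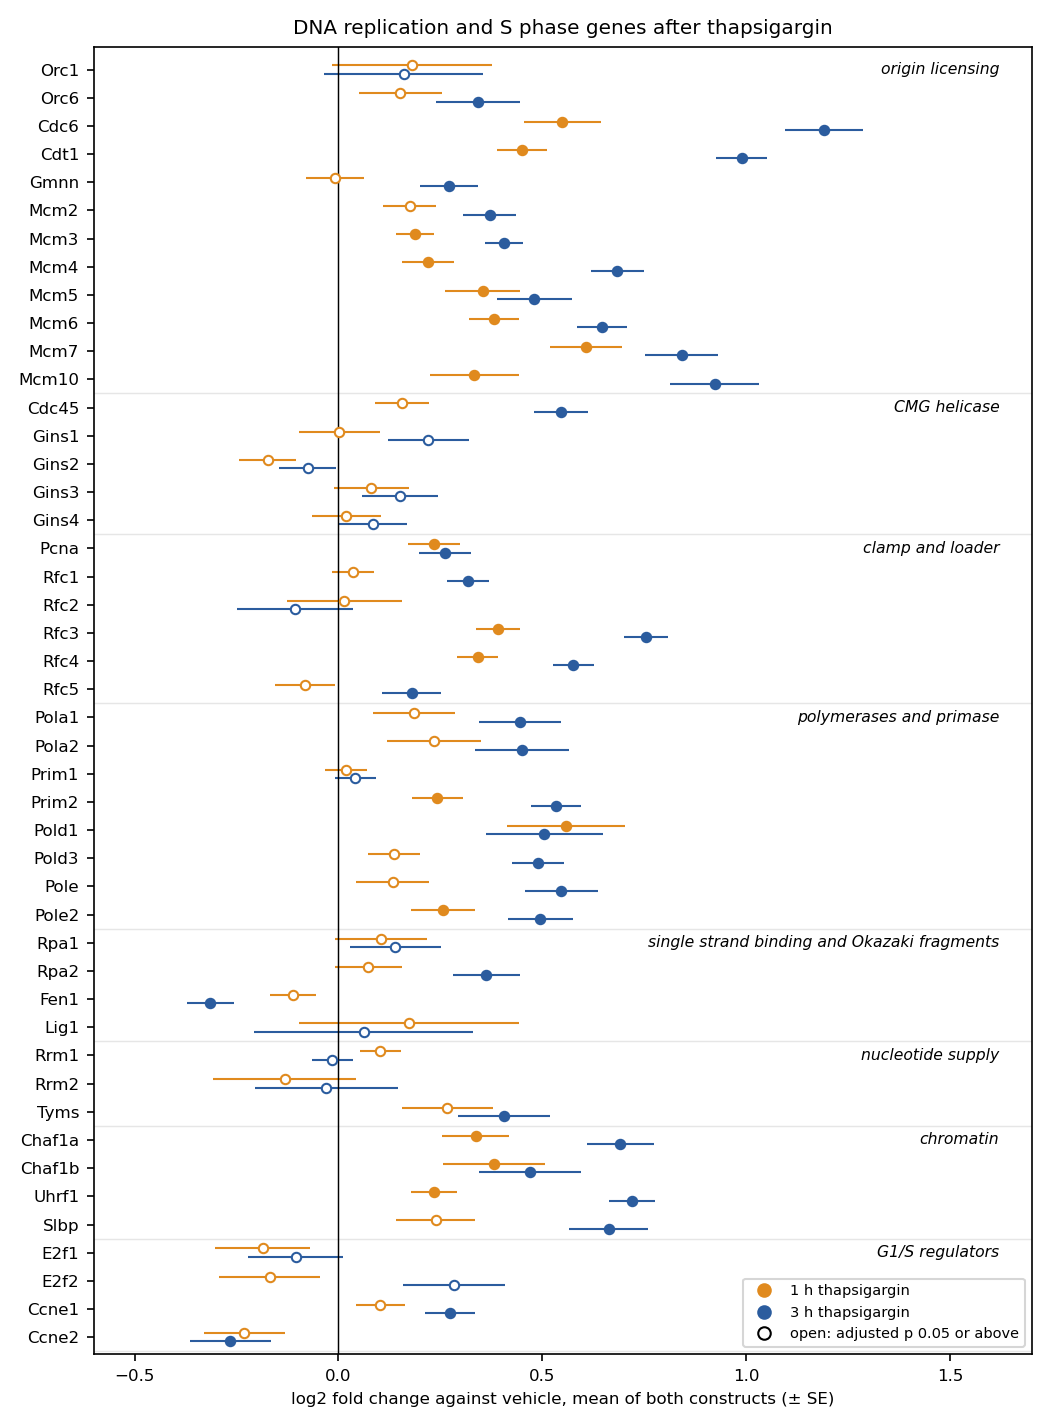
Log2 fold change against vehicle averaged over both labels (x axis, ± SE) for each of the 46 genes (y axis), ordered by role, at 1 h (orange) and 3 h (blue) of thapsigargin; filled points have an adjusted p under 0.05. Cdc6 and Cdt1 lie farthest to the right at 3 h, at 1.19 and 0.99, and Fen1 farthest to the left, at -0.31.

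Genes of origin licensing rose broadly. At 3 h 11 of the 12 rose, with a median log2 fold change of 0.56, and at 1 h 8 of the 12 rose, with a median of 0.28. Orc1, the ATPase subunit of the origin recognition complex, was the one not called at 3 h, at 0.16 ± 0.20 on the log2 scale. It was also the rarest of the 46 genes, between 3.91 and 10.6 CPM over all libraries. Values of 4 libraries are given from replicate 1 to replicate 4 throughout.

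Cdc6, the ATPase that recruits the helicase ring to origins, had the largest change. It stood at 44.1, 50.4, 55.4 and 53.0 CPM at 0 h, 50.1, 83.3, 84.2 and 83.4 at 1 h and 87.7, 125, 123 and 123 at 3 h in libraries labelled GFP. With the EIF2A label the values were 44.2, 44.6, 39.0 and 39.2 CPM at 0 h, 56.8, 61.8, 62.8 and 59.8 at 1 h and 101, 97.5, 96.6 and 89.6 at 3 h. At 3 h every library lay above every vehicle library, and replicate 1 labelled GFP was the lowest at 1 h and 3 h. The log2 fold change was 0.55 ± 0.10 (adjusted p = 0.000259) at 1 h and 1.19 ± 0.10 (adjusted p = 2.15e-09) at 3 h, a 2.28-fold rise.

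Cdt1, the partner of Cdc6 in loading the ring, stood at 128, 119, 124 and 124 CPM at 0 h, 156, 171, 177 and 177 at 1 h and 224, 236, 247 and 266 at 3 h (GFP). The libraries labelled EIF2A held 127, 114, 125 and 115 CPM at 0 h, 148, 156, 166 and 184 at 1 h and 205, 235, 246 and 281 at 3 h. The 3 times did not overlap under either label, and the 8 vehicle libraries lay within 114 to 128 CPM. Its log2 fold change was 0.45 ± 0.06 (adjusted p = 2.3e-05) at 1 h and 0.99 ± 0.06 (adjusted p = 6.11e-11) at 3 h, a 1.98-fold rise.

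Gmnn, the inhibitor of Cdt1, moved less and later. It had 95.2, 78.4, 80.5 and 78.6 CPM at 0 h, 82.2, 75.6, 81.1 and 80.0 at 1 h and 87.5, 102, 105 and 90.6 at 3 h in libraries labelled GFP. The other label gave 91.0, 66.7, 65.6 and 62.5 CPM at 0 h, 83.2, 71.9, 71.3 and 68.3 at 1 h and 87.4, 92.3, 90.1 and 90.4 at 3 h. Replicate 1 was the highest vehicle library under both labels and stood below its own vehicle level at 3 h, while replicates 2 to 4 were above theirs. Its log2 fold change was -0.01 ± 0.07 (adjusted p = 0.955) at 1 h and 0.27 ± 0.07 (adjusted p = 0.00319) at 3 h, and 0.40 ± 0.04 (adjusted p = 1.37e-08) at 3 h without replicate 1. Without replicate 2 or without replicate 3 the 3 h value was 0.22 in each case and was not called (adjusted p = 0.0803 and 0.085).

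All 6 subunits of the Mcm2 to Mcm7 ring rose at 3 h, by log2 fold changes from 0.37 (Mcm2) to 0.84 (Mcm7), and 5 of them rose at 1 h. Mcm2 at 1 h was 0.17 ± 0.07 (adjusted p = 0.0577). Mcm5, a subunit at the gate where the ring opens, stood at 283, 379.8, 372 and 379 CPM at 0 h, 333, 448, 453 and 475 at 1 h and 359, 455, 488 and 515 at 3 h (GFP). In libraries labelled EIF2A it held 326, 303, 317 and 320.1 CPM at 0 h, 386, 409, 427 and 491 at 1 h and 402, 467, 487 and 563 at 3 h. Replicate 1 labelled GFP was the lowest library at each time, and its value at 3 h was below the vehicle values of replicates 2 to 4, so that the groups overlapped there. Under the EIF2A label all treated libraries lay above all vehicle libraries. Mcm5 rose, on the log2 scale, by 0.35 ± 0.09 (adjusted p = 0.00744) at 1 h and 0.48 ± 0.09 (adjusted p = 0.000166) at 3 h.

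Mcm7, the subunit with the largest rise at both times, stood at 268, 208, 211 and 212 CPM at 0 h, 356, 307, 314 and 309.8 at 1 h and 403, 358, 364 and 375 at 3 h in libraries labelled GFP. With the EIF2A label it stood at 208, 233, 232 and 245 CPM at 0 h, 284, 394, 393 and 416 at 1 h and 327, 461, 466 and 513 at 3 h. Every library at 1 h and at 3 h lay above every vehicle library. Replicate 1 was the highest library labelled GFP and the lowest labelled EIF2A at each time. The log2 fold change was 0.61 ± 0.09 (adjusted p = 4.82e-05) at 1 h and 0.84 ± 0.09 (adjusted p = 1.05e-07) at 3 h. The 3 microRNA genes (Mir106b, Mir93 and Mir25) overlap Mcm7 on its own strand, and Ap4m1 and Cops6 on the other strand, so that reads of the overlaps cannot be assigned with certainty, since the sources do not say whether counting used strand. Mcm10, which helps to start the loaded helicase, rose by 0.33 ± 0.11 and 0.92 ± 0.11 (adjusted p = 4.47e-07). Orc6, the smallest origin recognition subunit, rose at 3 h by 0.34 ± 0.10 (adjusted p = 0.00816). Orc6 overlaps Vps35 on the other strand.

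The helicase partners gave another picture. Cdc45 was the 1 of 5 genes of this group that rose at 3 h, by 0.55 ± 0.07 (adjusted p = 7.28e-07). None of the 4 GINS genes was called at 3 h: Gins1 stood at 0.22 ± 0.10, Gins3 at 0.15 ± 0.09, Gins4 at 0.08 ± 0.08 and Gins2 at -0.08 ± 0.07. With the pairs as a block, Gins1, Gins3 and Gins4 were called as risen at 3 h (0.22, 0.15 and 0.09, adjusted p = 6.24e-05, 0.00164 and 0.0209). Gins2 was then at -0.08 ± 0.04 (adjusted p = 0.0645) at 3 h and was called as fallen at 1 h (-0.17 ± 0.04, adjusted p = 0.000422). Scaled by library totals, the same 3 genes were called at 3 h (0.36, 0.29 and 0.23) and Gins2 stood at 0.06. Gins2 overlaps Gse1 on the other strand.

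Of the clamp and its loader, 5 of 6 genes rose at 3 h and 3 at 1 h. Pcna, the sliding clamp, had 396, 337, 327 and 322 CPM at 0 h, 454, 373, 370.1 and 366 at 1 h and 467, 365, 385 and 367 at 3 h (GFP). Its values with the EIF2A label were 345, 315, 305 and 292 CPM at 0 h, 395, 378, 374 and 391 at 1 h and 393, 410.4, 392 and 377 at 3 h. Under the EIF2A label the vehicle libraries lay below all those at 1 h and 3 h. Under the GFP label the vehicle library of replicate 1 lay above the treated libraries of replicates 2 to 4. Pcna rose by 0.23 ± 0.06 (adjusted p = 0.0102) at 1 h and 0.26 ± 0.06 (adjusted p = 0.00179) at 3 h. Pcna was also the most abundant of the 46 genes per length in vehicle cells, at 137 CPM per kb of exons, followed by Lig1 at 114 and Fen1 at 109 CPM per kb. The ranges of these 3 over the 8 vehicle libraries overlapped (122 to 165, 62.5 to 174 and 96.6 to 125 CPM per kb). At the other end of this scale stood Mcm10 at 4.49 and Orc1 at 1.84 CPM per kb, and the range of Orc1 over these libraries was 1.13 to 2.52.

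Rfc3, a small subunit of the clamp loader, was the loader gene with the largest rise. It stood at 84.9, 81.6, 82.0 and 82.0 CPM at 0 h, 102, 99.4, 108 and 101 at 1 h and 118, 139, 134 and 129 at 3 h in libraries labelled GFP. Libraries labelled EIF2A gave 88.3, 79.0, 70.9 and 77.5 CPM at 0 h, 106, 117, 109 and 105 at 1 h and 122, 154, 147 and 148 at 3 h. The 3 times did not overlap under either label. Its log2 fold change was 0.39 ± 0.05 (adjusted p = 2.51e-05) at 1 h and 0.75 ± 0.05 (adjusted p = 3.98e-10) at 3 h, a 1.69-fold rise. Rfc4 rose by 0.34 ± 0.05 and 0.58 ± 0.05, and Rfc1, the large subunit, rose at 3 h by 0.32 ± 0.05 (adjusted p = 2.36e-05). Rfc5 was just past the threshold at 3 h at 0.18 ± 0.07 (adjusted p = 0.0479) and was not called by DESeq2, which gave 0.15 (adjusted p = 0.0902). Rfc2 was not called, at -0.11 ± 0.14 (adjusted p = 0.567), and stood at 0.04 scaled by library totals. Rfc4 overlaps Eif4a2, Rfc5 overlaps Wsb2 and Rfc2 overlaps Lat2, each on the other strand.

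Of the polymerase and primase genes 7 of 8 rose at 3 h, with a median of 0.49 over the 8. The values lay close together: Pole, the catalytic subunit of polymerase epsilon, rose by 0.55 ± 0.09, Prim2, the large primase subunit, by 0.53 ± 0.06, and Pold1, the catalytic subunit of polymerase delta, by 0.50 ± 0.14. Pole2 and Pold3, accessory subunits, rose by 0.50 ± 0.08 and 0.49 ± 0.06. Pola2 and Pola1, the subunits of polymerase alpha, rose by 0.45 ± 0.12 and 0.44 ± 0.10. Prim1, the catalytic primase subunit, stood at 0.04 ± 0.05 (adjusted p = 0.535), and scaled by library totals at 0.18 (adjusted p = 0.0206). The adjusted p of the 7 that rose ran from 3.78e-07 (Prim2) to 0.00599 (Pold1). At 1 h Pold1, Pole2 and Prim2 had risen, by 0.56 ± 0.14, 0.26 ± 0.08 and 0.24 ± 0.06. Pold1 overlaps the microRNA gene Mir7053 on its own strand.

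Genes that coat single strands and finish the lagging strand were mixed. Rpa2, a subunit of the single-strand binding complex, rose at 3 h by 0.36 ± 0.08 (adjusted p = 0.000872), while Rpa1 stood at 0.14 ± 0.11 (adjusted p = 0.324). Fen1, the nuclease that trims the flaps between Okazaki fragments, fell: it stood at 252, 251, 247 and 249.8 CPM at 0 h, 236, 225, 234 and 237 at 1 h and 209, 193, 197 and 214 at 3 h with the GFP label. With the EIF2A label it stood at 234, 288, 296 and 303 CPM at 0 h, 228, 263, 258 and 280.4 at 1 h and 210.4, 213, 215 and 253 at 3 h. All libraries labelled GFP at 3 h lay below all vehicle libraries of that label, and under the EIF2A label the vehicle library of replicate 1 lay below replicate 4 at 3 h. The log2 fold change of Fen1 was -0.11 ± 0.06 (adjusted p = 0.182) at 1 h and -0.31 ± 0.06 (adjusted p = 0.000101) at 3 h. Scaled by library totals it was -0.17 (adjusted p = 0.00593) averaged over labels, and was not called within either label. Fen1 overlaps Tmem258 on the other strand. Lig1, the ligase that joins the fragments, stood at 0.06 ± 0.27 (adjusted p = 0.873), and its wide error goes with the difference between labels described below.

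Of the 3 nucleotide supply genes, Tyms, which makes thymidylate, rose at 3 h by 0.41 ± 0.11 (adjusted p = 0.00482). Rrm1 and Rrm2 encode the large and the small subunit of ribonucleotide reductase, and Rrm1 stood at -0.02 ± 0.05, or 0.12 scaled by library totals, and was not called by either. Rrm2 held 118, 191, 187 and 191 CPM at 0 h, 112, 183, 187 and 177 at 1 h and 119.8, 201, 203 and 186 at 3 h in libraries labelled GFP. The values for the EIF2A label were 189, 138, 135 and 134 CPM at 0 h, 198, 109.6, 109.8 and 100.4 at 1 h and 208, 122, 122 and 102 at 3 h. Replicate 1 was the lowest library labelled GFP and the highest labelled EIF2A at every time. Averaged over labels the log2 fold change of Rrm2 was -0.13 ± 0.18 (adjusted p = 0.669) at 1 h and -0.03 ± 0.18 (adjusted p = 0.907) at 3 h. Scaled by library totals it was 0.10 at 3 h, so that its sign is not settled. With the pairs as a block Rrm2 was called as fallen at 1 h (-0.15 ± 0.04, adjusted p = 0.00267).

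Genes of chromatin assembly rose throughout: 4 of 4 at 3 h, with a median of 0.68, and 3 of 4 at 1 h. Uhrf1, which reads hemimethylated DNA behind the fork for DNA methyltransferase, stood at 124, 121, 124 and 125 CPM at 0 h, 136, 152, 151 and 148 at 1 h and 171, 187, 203 and 198 at 3 h (GFP). Libraries labelled EIF2A stood at 120.4, 110.1, 110.5 and 96.9 CPM at 0 h, 134, 125, 130.1 and 119 at 1 h and 162, 201, 206 and 202 at 3 h. Within a label the times did not overlap except for 1 pair of values, since the vehicle library of replicate 1 labelled EIF2A lay above replicate 4 at 1 h. Uhrf1 thus rose by 0.23 ± 0.06 (adjusted p = 0.00454) at 1 h and 0.72 ± 0.06 (adjusted p = 1.54e-09) at 3 h. Chaf1a and Chaf1b, the large and middle subunits of chromatin assembly factor 1, rose at 3 h by 0.69 ± 0.08 and 0.47 ± 0.13. Chaf1a overlaps Ubxn6 on the other strand. Slbp, the protein that binds the stem-loop of histone mRNA, stood at 133, 112, 114 and 111 CPM at 0 h, 144, 147, 149.5 and 136 at 1 h and 193, 189, 184 and 168 at 3 h with the GFP label. With the EIF2A label Slbp held 113, 82.6, 83.8 and 78.9 CPM at 0 h, 139, 92.4, 93.1 and 82.5 at 1 h and 172, 137, 139 and 128 at 3 h. No vehicle library of either label reached a 3 h library of the same label. Its log2 fold change was 0.24 ± 0.10 (adjusted p = 0.0818) at 1 h and 0.66 ± 0.10 (adjusted p = 7.01e-06) at 3 h, and with the pairs as a block the 1 h value was called (0.24 ± 0.04, adjusted p = 4.37e-06).

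The regulators of S phase entry did not share one direction. E2f1, an activator E2F, stood at 207, 148, 151 and 154 CPM at 0 h, 178, 128, 132 and 139 at 1 h and 170.4, 140.2, 151 and 157 at 3 h with the GFP label. The EIF2A label gave 145, 197, 209 and 223 CPM at 0 h, 129.6, 182, 181 and 191 at 1 h and 128, 177, 190.4 and 217 at 3 h. Replicate 1 was the highest library labelled GFP and the lowest labelled EIF2A at each time, and the times overlapped. Averaged over labels its log2 fold change was -0.19 ± 0.12 (adjusted p = 0.287) at 1 h and -0.11 ± 0.12 (adjusted p = 0.484) at 3 h, and scaled by library totals 0.04 at 3 h. With the pairs as a block E2f1 was called as fallen at both times (-0.18 ± 0.04 and -0.10 ± 0.04, adjusted p = 5.73e-05 and 0.00961). E2f2 stood at -0.17 ± 0.12 (adjusted p = 0.381) at 1 h and 0.28 ± 0.12 (adjusted p = 0.0642) at 3 h, on opposite sides of 0, and library totals gave 0.43 at 3 h (adjusted p = 0.00312). The blocked fit called both times (-0.17 ± 0.04 and 0.29 ± 0.04, adjusted p = 0.000219 and 2.18e-08).

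The 2 E-type cyclins, partners of the kinase Cdk2, moved in opposite directions at 3 h. Ccne1 stood at 103, 118, 113 and 116 CPM at 0 h, 104, 126, 129 and 129 at 1 h and 113, 134, 134 and 139 at 3 h with the GFP label. For the EIF2A label the values were 117, 106, 115 and 115 CPM at 0 h, 119.6, 123, 122 and 118 at 1 h and 121, 146, 149.9 and 156 at 3 h. Each library rose from its own vehicle value by 3 h, and replicate 1 labelled GFP was lowest at 0, 1 and 3 h. The log2 fold change of Ccne1 was 0.10 ± 0.06 (adjusted p = 0.254) at 1 h and 0.27 ± 0.06 (adjusted p = 0.000715) at 3 h. Ccne2 stood at 96.2, 96.5, 97.2 and 96.1 CPM at 0 h, 87.2, 85.5, 83.6 and 79.6 at 1 h and 85.0, 87.7, 79.6 and 75.3 at 3 h with the GFP label. Its levels with the EIF2A label were 89.7, 94.8, 77.3 and 80.4 CPM at 0 h, 86.6, 68.8, 68.8 and 61.1 at 1 h and 92.0, 73.3, 68.6 and 45.2 at 3 h. The vehicle libraries labelled GFP lay within 96.1 to 97.2 CPM, above all treated libraries of that label, while the groups labelled EIF2A overlapped and replicate 4 at 3 h was the lowest of the 24. The log2 fold change was -0.23 ± 0.10 (adjusted p = 0.102) at 1 h and -0.27 ± 0.10 (adjusted p = 0.0306) at 3 h. The call at 3 h was lost when replicate 2, 3 or 4 was left out (-0.27, -0.28 and -0.18, adjusted p = 0.139, 0.13 and 0.0959) and when libraries were scaled by their totals (-0.13, adjusted p = 0.335). It was also lost without a single library, GFP at 3 h replicate 3 or 4 (-0.26 and -0.25, adjusted p = 0.0521 and 0.0605) or EIF2A at 0 h replicate 2 (-0.24, adjusted p = 0.0649). Ccne2 overlaps Ints8 on the other strand.

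**Figure D3:**
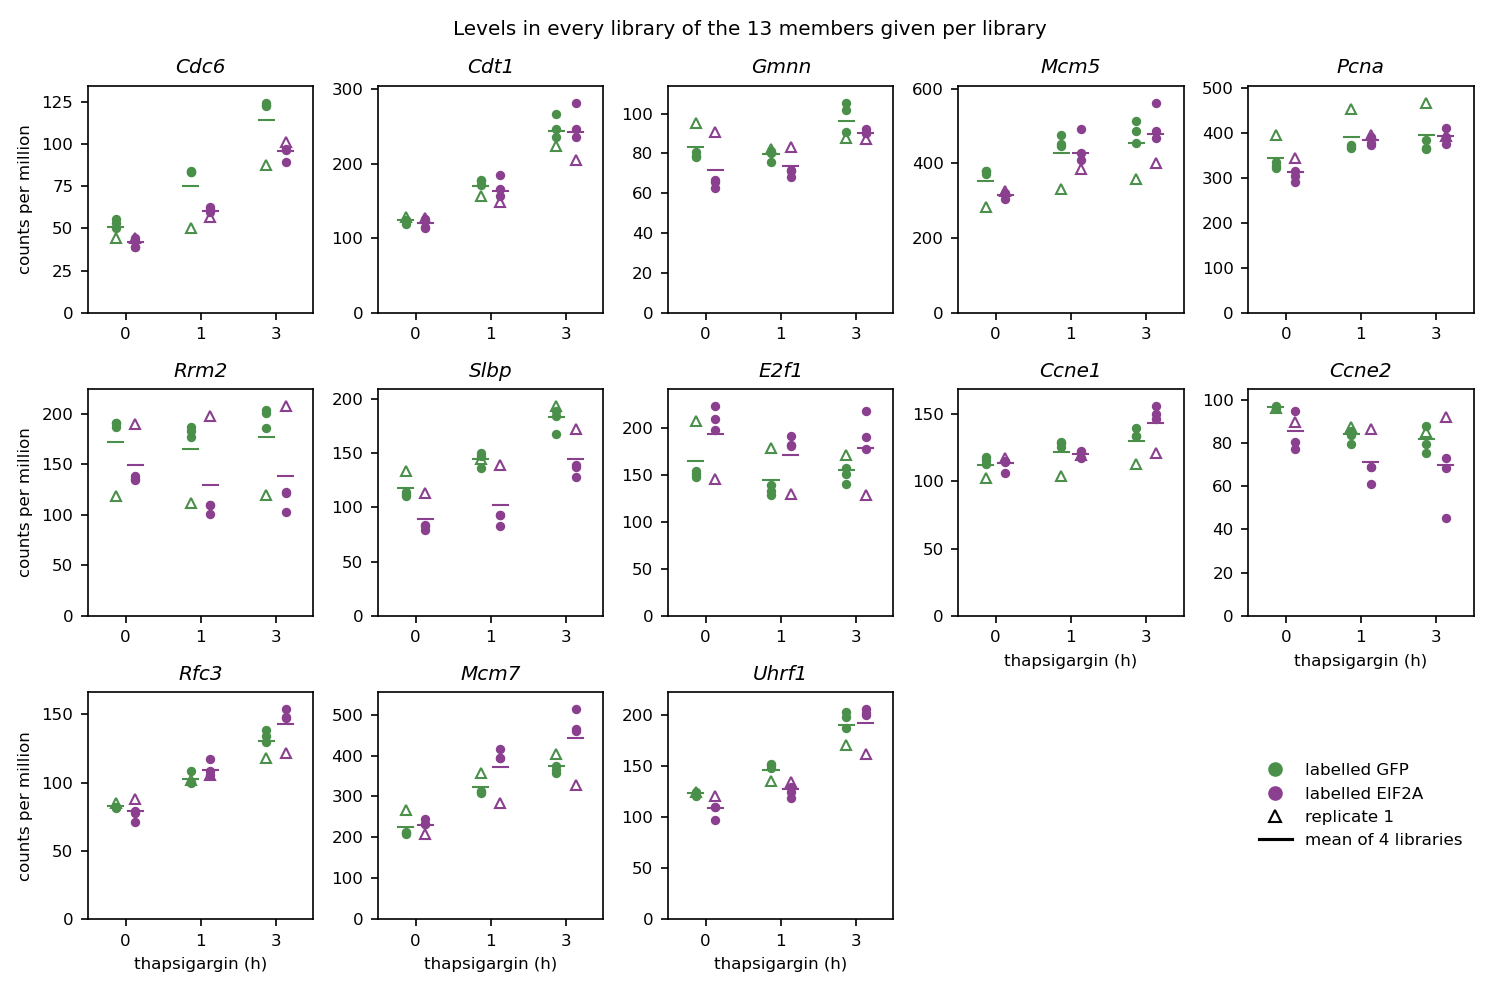
CPM (y axis, from 0) in every library for the 13 genes given library by library, by time of thapsigargin in h (x axis); green is the GFP label, purple the EIF2A label, triangles replicate 1 and bars the mean of 4 libraries. Cdc6, Cdt1, Rfc3 and Mcm7 climb with time under both labels, and replicate 1 sits on the other side of the label's remaining libraries for Rrm2 and E2f1.

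The same comparisons were made within each label, which share their vehicle libraries between 1 h and 3 h. Under the GFP label 7 genes rose and 0 fell at 1 h (5.78% and 2.39% of all genes), and 22 rose and 1 fell at 3 h (18.4% and 14.6%). Under the EIF2A label 10 rose and 0 fell at 1 h (6.55% and 3.94%), and 29 rose and 1 fell at 3 h (19.6% and 16.6%). Cdc6 at 3 h was 1.18 ± 0.13 under GFP and 1.20 ± 0.14 under EIF2A, and Cdt1 was 0.97 ± 0.09 and 1.00 ± 0.09. Fen1 was the gene that fell at 3 h under each label, at -0.30 ± 0.08 and -0.33 ± 0.08. From 1 h to 3 h, 10 genes rose and 0 fell under GFP (5.49% and 4.28%) and 17 rose and 0 fell under EIF2A (8.28% and 6.62%). Cdc6 and Cdt1 rose between these times by 0.61 and 0.51 under GFP and by 0.68 and 0.56 under EIF2A, and Uhrf1 by 0.37 and 0.60.

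With the pairs as a block more genes passed, among the 46 and among all. Under GFP 26 rose and 4 fell at 1 h (22.9% and 21.6% of all genes), 35 and 3 at 3 h (33.6% and 33.5%) and 27 and 1 from 1 h to 3 h (25.2% and 24.5%). Under EIF2A 25 rose and 6 fell at 1 h (21.9% and 23.3%), 35 and 5 at 3 h (32.9% and 33.3%) and 31 and 4 from 1 h to 3 h (26.7% and 25.9%). Without replicate 1, 30 rose and 2 fell at 1 h under GFP (21.2% and 18.2% of all genes), 36 and 1 at 3 h (32.2% and 30.8%) and 27 and 1 from 1 h to 3 h (21.0% and 21.3%). Under EIF2A 22 and 4 did so at 1 h (20.2% and 21.8%), 33 and 4 at 3 h (31.2% and 31.4%) and 30 and 4 from 1 h to 3 h (25.5% and 23.6%). Leaving out replicate 2, 3 or 4 instead took away nearly all calls at 1 h and from 1 h to 3 h under GFP. At 1 h 0, 0 and 1 genes rose under GFP (0.755%, 0.616% and 1.85% of all genes) and 1, 0 and 4 under EIF2A (1.06%, 0.935% and 2.21%). From 1 h to 3 h 1, 0 and 1 rose under GFP (0.835%, 0.645% and 1.58%) and 3, 3 and 4 under EIF2A (1.65%, 1.25% and 3.11%). At 3 h 16, 16 and 19 rose under GFP (10.7%, 10.2% and 13.3%) and 19, 19 and 21 under EIF2A (11.8%, 11.6% and 14.2%).

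By levels alone, all 4 treated libraries lay above all 4 vehicle libraries for 17 genes at 1 h (12.2% of all genes) and 23 at 3 h (21.1%) under GFP. They lay below for 2 genes at each time, Fen1 and Ccne2 (10.0% and 18.3%). Under EIF2A they lay above for 13 genes at 1 h (7.31%) and 21 at 3 h (15.1%), and below for 0 and 0 (5.6% and 12.8%).

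Whether the response differed between the labels was tested as an interaction, the response under EIF2A minus that under GFP. No replication gene was called at 1 h or at 3 h by edgeR (0.0% and 0.0% of all genes), with 0 and 1 at an unadjusted p under 0.05 (0.523% and 1.06% of all genes), and none by DESeq2 (0.0% and 0.0%). Without replicate 1, 0 were called at 1 h (0.488% of all genes positive and 0.328% negative), with 11 at an unadjusted p under 0.05 (12.7% of all genes). At 3 h 2 were then positive and 1 negative (1.55% and 2.57%). Mcm6 rose more under EIF2A by 0.22 ± 0.06 (adjusted p = 0.0353), Pole2 by 0.52 ± 0.13 (adjusted p = 0.0244), and Rrm1 differed by -0.27 ± 0.07 (adjusted p = 0.0291). In replicates 2 to 4 Pole2 went from 26.4, 25.4 and 27.0 to 35.5, 30.7 and 31.9 CPM under GFP and from 18.0, 19.0 and 17.6 to 35.8, 33.6 and 27.8 CPM under EIF2A. Its levels thus differed at 0 h and overlapped at 3 h. Without replicate 1 and with the pairs as a block, 5 were positive and 5 negative at 1 h (3.89% and 3.73%), and 11 were positive and 4 negative at 3 h (5.65% and 8.59%). The 11 were Mcm5, Mcm6, Mcm7, Pcna, Rfc3, Prim2, Pole2, Tyms, Chaf1b, Uhrf1 and Ccne1, and the 4 were Rpa2, Rrm1, Rrm2 and E2f2. Mcm5 had 0.32 ± 0.06 (adjusted p = 0.000188) and Rrm2 -0.29 ± 0.06 (adjusted p = 0.00137) in that fit.

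EIF2A against GFP at the same time called few replication genes as labelled: 0 at 0 h (0.0218% of all genes), 1 at 1 h (1.02%) and 0 at 3 h (0.0%) by edgeR. At an unadjusted p under 0.05 there were 10, 14 and 7 (21.8%, 28.3% and 21.1% of all genes), and DESeq2 called 0, 4 and 0 (4.07%, 13.8% and 1.53%). The gene called at 1 h was Mcm4, at -0.42 ± 0.09 (adjusted p = 0.0443). Replicate 1 ran opposite to the others in 29 of the 46 genes at each time, and in 70.0%, 72.3% and 70.3% of all genes at 0, 1 and 3 h. Across the 46 genes, the difference between labels in replicate 1 had a Pearson r of -0.70, -0.73 and -0.74 with the mean difference in replicates 2 to 4 at 0, 1 and 3 h. This is a description across genes, which are not independent, of libraries that share their labels.

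**Figure D4:**
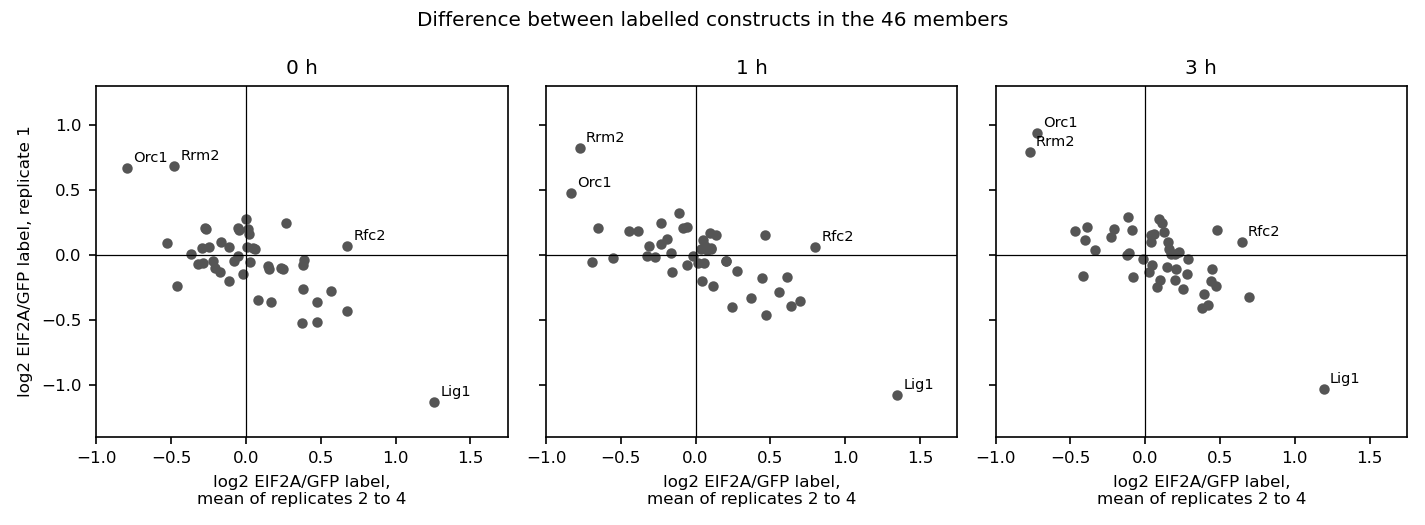
Log2 ratio of the EIF2A label to the GFP label in replicate 1 (y axis) against the mean of replicates 2 to 4 (x axis) for the 46 genes at 0, 1 and 3 h. Points run from the upper left to the lower right, with Lig1 at the lower right and Orc1 and Rrm2 at the upper left at each time.

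Without replicate 1, 16 replication genes were higher and 15 lower under EIF2A at 0 h (31.9% and 32.9% of all genes), 15 and 16 at 1 h (32.7% and 37.3%) and 22 and 11 at 3 h (32.5% and 35.1%). As shares of the 46 these were 34.8% and 32.6%, 32.6% and 34.8%, and 47.8% and 23.9%, so that at 0 h and 1 h the replication genes differed about as often as other genes did. Of the 46, 14 were higher at all 3 times: Orc6, Mcm7, Gins1, Gins4, Rfc2, Rfc5, Pold1, Rpa2, Fen1, Lig1, Tyms, Chaf1b, E2f1 and E2f2. Lower at all 3 times were 8: Orc1, Cdc6, Gmnn, Mcm4, Gins3, Pola1, Rrm2 and Slbp. Of all genes tested, 24.7% were higher and 27.3% lower at all 3 times.

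Lig1 differed most. In libraries labelled GFP it stood at 585, 299, 297 and 296 CPM at 0 h, 611, 329, 325 and 337 at 1 h and 566, 322, 325 and 328 at 3 h. In those labelled EIF2A it stood at 267, 685, 709 and 742 CPM at 0 h, 288, 785, 851 and 889 at 1 h and 276, 711, 726 and 794 at 3 h. At each time replicate 1 labelled GFP lay above the GFP libraries and below the EIF2A libraries of replicates 2 to 4. Replicate 1 labelled EIF2A lay below the GFP libraries of replicates 2 to 4. Without replicate 1 the log2 differences at 0, 1 and 3 h were 1.26 ± 0.05, 1.35 ± 0.05 and 1.20 ± 0.05 (adjusted p = 2.3e-13, 7.13e-14 and 3.93e-13). With it, the difference at 0 h was 0.70 ± 0.38 (adjusted p = 0.276). Rfc2 stood at 0.68, 0.80 and 0.65 without replicate 1, and in replicate 1 it was 0.07, 0.06 and 0.10. Lower under EIF2A without replicate 1 were Rrm2 (-0.48, -0.77 and -0.77), Orc1 (-0.77, -0.83 and -0.71) and Slbp (-0.46, -0.69 and -0.42). Cdt1 was not called at any time (-0.05 ± 0.07, -0.05 ± 0.07 and 0.03 ± 0.07). Duct cell markers (Krt19, Sox9, Cftr and Spp1) also varied between libraries of one label, with summed levels of 12.6 to 625 CPM (0 h), 15.6 to 716 (1 h) and 14.7 to 524 (3 h) under GFP. Under EIF2A these were 27.2 to 466, 30.6 to 535 and 22.9 to 447 CPM, and none of the 4 was at 0. Markers of acinar, delta and PP, endothelial, macrophage and mesenchymal cells summed to at most 15.7 CPM per list. Their part in the difference between labels was not tested.

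The genes with an E2F match in their windows were set beside those without. At 3 h 9 of 12 with a match rose and 0 fell, with a median log2 fold change of 0.49, and 18 of 25 without one rose and 1 fell, with a median of 0.36. At 1 h 8 of 12 and 7 of 25 rose. Orc1, Lig1 and E2f2 held a match and were not called at 3 h, while Cdc6, which changed most, held no match to TTTNGCGC in its window. Other forms of the motif were not searched. These counts are given without a test.

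Other genes of the pathway, from lists made for this comparison, were read at 3 h averaged over labels, beside 26.0% of all genes rising and 23.6% falling. Of 53 other replication genes 22 rose and 7 fell, with a median of 0.07. They include Fbxo5, an inhibitor of the anaphase-promoting complex (1.44 ± 0.08), Orc4 and Orc5, origin recognition subunits (0.97 ± 0.09 and 0.67 ± 0.06), and Dtl, which directs Cdt1 to breakdown (0.79 ± 0.06). Of 32 genes of the replication checkpoint and fork protection 20 rose and 1 fell, with a median of 0.43, among them Mms22l (0.97 ± 0.07), Brca2 (0.91 ± 0.06), Clspn (0.63 ± 0.05) and Timeless (0.61 ± 0.06). Of 30 G1/S regulators outside the 46, 6 rose and 10 fell, with a median of -0.08: E2f8 and E2f7, repressor E2Fs, rose by 0.72 ± 0.06 and 0.52 ± 0.06, while Cdkn2c, a kinase inhibitor, and Cks1b, a kinase subunit, stood at -0.77 ± 0.05 and -0.63 ± 0.08. Of 27 G2/M genes 7 rose and 10 fell, with a median of 0.00, as the spindle gene Dlgap5 rose (0.87 ± 0.04) while Ube2c, Birc5 and Cenpa stood at -0.61 ± 0.05, -0.58 ± 0.05 and -0.43 ± 0.04. The proliferation markers Mki67, Top2a and Ccnb1 stood at 0.18 ± 0.05, -0.29 ± 0.09 and -0.24 ± 0.12, the last not called (adjusted p = 0.0996).

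Replication-dependent histone genes, whose mRNAs usually end without a poly(A) tail, rose in 51 of 54 tested at 3 h and fell in 0, with a median of 1.82, and rose in 15 of 54 at 1 h. Hist1h1b rose by 3.98 ± 0.19 and Hist1h1d by 3.80 ± 0.17, both genes of linker histones. As the libraries were made from polyadenylated RNA, these values count only the histone mRNA that was captured that way. Of 10 beta cell markers 0 rose and 6 fell at 3 h, with a median of -0.40, and their summed level per library ran from 70514 to 95464 CPM (0 h), 58518 to 87602 (1 h) and 40029 to 62227 (3 h) under GFP. Under EIF2A it ran from 78578 to 96868, 69302 to 101550 and 54059 to 62641 CPM, with none of the 10 at 0. Of alpha cell markers (Gcg, Irx2 and Ttr, none at 0) the sum was 1349 to 1815 CPM (0 h), 1273 to 1639 (1 h) and 894 to 1072 (3 h) under GFP, and 1275 to 2414, 1190.1 to 2348 and 665 to 1804 CPM under EIF2A. Ttr fell at 3 h, at -0.95 ± 0.14 (adjusted p = 5.73e-06), and Gcg, which encodes glucagon, stood at -0.64 ± 0.43 (adjusted p = 0.236). The part of these marker changes in the rise of the replication genes was not tested.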

How the data were processed

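RNA was sequenced from 24 MIN6 libraries in 6 groups of 4, made with a stranded TruSeq mRNA kit after poly(A) selection, per the labels' protocols. The authors deposited whole-number counts per gene, not normalized. Reads were handled with bcl2fastq and STAR on mm10, per the submitters' processing notes. The sources used here do not give the counting program, annotation, strand setting or versions. Of all reads in the tables, 10.7 to 17.9% were in the line for no feature and 0.518 to 0.592% in the line for ambiguous reads, and both lines were left out of library sizes and tests.

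Genes were kept with edgeR's filterByExpr (minimum count 10, minimum total 15), scaled by TMM, and fitted in edgeR 4.0.16 (limma 3.58.1, R 4.3.3) with 6 group means and 18 residual degrees of freedom. The quasi-likelihood F test was used with Benjamini-Hochberg adjustment over all 13761 genes tested, a call being an adjusted p under 0.05. Log2 fold changes use a prior count of 0.125, and each SE is the size of the log2 fold change divided by the square root of F. CPM is counts scaled to a total of 1 M with TMM library sizes, and CPM per kb uses exon lengths of GENCODE M21, matched for 96.2% of tested genes. Genes overlapping another listed gene (10 of the 46) were kept. The fit was tested on simulated data, and tables were handled in Python 3.11.15.

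The 46 genes and the other lists were chosen with earlier results of these data known. Values in every library are given for 10 preset genes and the 3 with the smallest p at 1 h and at 3 h, and other lists by counts and up to 4 genes of smallest p. Fen1, Lig1 and Pole2 were added to the first after their values were seen. Same-numbered libraries deviated together within a label: 24 of 24 pairs across times had a correlation over 0.1 (0.613 to 0.945). Without replicate 1 it was 13 of 18 (-0.022 to 0.539). Libraries of different numbers within a label gave -0.85 to 0.75, and -0.45 to 0.29 without replicate 1. Between labels 0 of 12 pairs had a correlation over 0.1 (-0.599 to -0.027), and 4 of 9 without replicate 1 (-0.009 to 0.511). Alternatives were a block for each replicate number within a label (8 blocks; for EIF2A against GFP, 4 blocks by number across labels), leaving out each replicate number, DESeq2 1.42.0, library totals as scaling and no filter, and, added after seeing the data, leaving out each library. RefSeq promoter windows were searched by exact letters. One marker gene is not reported here.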

Additional observations from a re-analysis of the deposited data

Results flagged for a closer look

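In 78 groups of 4 libraries (the 13 genes given library by library, in 6 groups), 1 library was set apart from the other 3 in 19 groups, by Dixon's gap ratio at 95%. The ratio sets the gap against the range of the 4 values, so that a flagged library can still be close in level. Rfc3 at 0 h under GFP was flagged at 84.85 CPM beside 81.6, 82.0 and 82.0 CPM. Chance flags about 1 in 20 independent groups, but the 6 groups of a gene share their replicate numbers and are not independent. The share of groups flagged over all genes is not given, and replicate 1 also stood apart from the other replicates over all genes. The count of 19 is therefore not a result about these genes. In all 19 that library was replicate 1, whose construct labels ran against its Eif2a level, and the part of the labels in these gaps was not tested. In libraries labelled GFP, replicate 1 stood apart in Cdc6 at 1 h (50.15 CPM) and 3 h (87.69 CPM), in Gmnn at 0 h (95.25 CPM), in Mcm5 at 0 h (283.4 CPM) and in Pcna at 1 h (453.8 CPM). It did so in Rrm2 at 0 h (118.1 CPM) and 1 h (111.9 CPM), in Slbp at 0 h (133.3 CPM), in E2f1 at 0 h (207.4 CPM) and in Ccne1 at 1 h (103.9 CPM). It did so too in Rfc3 at 0 h (84.85 CPM) and in Mcm7 at 0 h (267.9 CPM) and 1 h (356.3 CPM). In libraries labelled EIF2A, replicate 1 stood apart in Gmnn at 0 h (90.98 CPM), in Rrm2 at 0 h (189.3 CPM) and 1 h (198.2 CPM), in Slbp at 0 h (113.1 CPM), in E2f1 at 1 h (129.6 CPM) and in Uhrf1 at 3 h (162.5 CPM).

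At 3 h the interaction test without replicate 1 called 4.35% of the 46 genes as positive and 2.17% as negative, against 1.55% and 2.57% of all genes. The genes were Mcm6 (0.2227 on the log2 scale, larger under EIF2A), Pole2 (0.5152, larger under EIF2A) and Rrm1 (-0.2714, smaller under EIF2A). The levels of Pole2 in replicates 2 to 4 differed at 0 h and overlapped at 3 h. With replicate 1 none of the 3 was called.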

How the results depend on the processing

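Of the 46 genes, the number called at 3 h averaged over labels (33) stayed within 1.5 times under every alternative run, from 27 to 39 over the replicate numbers left out and from 31 to 35 over single libraries left out. At 1 h the 17 calls became 36 with the replicate block, 39 with the replicate block and without replicate 1, 6 to 36 over replicate numbers left out and 15 to 20 over single libraries left out. The replicate block gave 30 (GFP) and 31 (EIF2A) at 1 h, 38 (GFP) at 3 h, and 28 and 35 from 1 h to 3 h. Adding the loss of replicate 1 to it gave 37 and 33 at 1 h, 39 (GFP) at 3 h, and 33 and 38 from 1 h to 3 h. Leaving out a replicate number gave 0 to 32 (GFP) and 0 to 26 (EIF2A) at 1 h, 16 to 37 and 19 to 37 at 3 h, and 0 to 28 and 3 to 34 from 1 h to 3 h. Leaving out 1 library gave 5 to 9 and 6 to 13 at 1 h, 21 to 26 and 25 to 32 at 3 h, and 4 to 16 and 11 to 23 from 1 h to 3 h. Library totals gave 20 and 26 from 1 h to 3 h, and no filter gave 6 (EIF2A) at 1 h. Calls over all genes moved too. Under GFP at 1 h, 5.78% of all genes rose and 2.39% fell as labelled, and 22.9% and 21.6% with the block. Without replicate 3, 0.616% of all genes rose in that comparison. Such gains and losses of calls are therefore not particular to the replication genes. Shares of all genes are not given for the block without replicate 1, for single libraries left out, or for the counts above by library totals and no filter. Those counts of the 46 cannot be read alone.

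Between labels, same-numbered libraries had a correlation over 0.1 in 0 of 12 pairs, and in 4 of 9 without replicate 1. Whether the numbers pair libraries across labels is therefore not settled. For EIF2A against GFP at 0, 1 and 3 h, a replicate block on the number alone called 5, 6 and 3 (9.69%, 21.0% and 7.66% of all genes). It called 31, 32 and 35 when replicate 1 was left out as well (70.0%, 74.5% and 73.1%). Replicate numbers left out gave 0 to 31, 0 to 31 and 0 to 33, the highest without replicate 1, and single libraries left out 0 to 11, 0 to 15 and 0 to 13. At 1 h DESeq2 called 4, library totals 2 and no filter 0. Shares of all genes are not given here for single libraries left out, library totals and no filter. The interactions had 10 and 15 calls at 1 h and 3 h with the block and without replicate 1, 0 to 0 and 0 to 3 over replicate numbers left out, and 0 to 0 at both times over single libraries.

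Among the 13 genes given library by library, 3 near 0 turned sign, and library totals also turned Gins2, Rfc2 and Rrm1 at 3 h (0.06, 0.04 and 0.12). Gmnn at 1 h was 0.05611 without replicate 1 and 0.05672 when the block was added, and -0.04096 to 0.06094 over single libraries left out. Rrm2 at 3 h was 0.104 by library totals, 0.02203 without replicate 4 and -0.1624 to 0.04345 over single libraries left out. E2f1 at 3 h was 0.03791 by library totals. Of the values of these 13 genes, 806 kept sign and side of the threshold, 23 gained a call, 17 lost one and 12 turned. Why these values moved was not tested.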

Other observations

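Pairs of libraries within replicates 2 to 4 of a group differed with a chi-square per degree of freedom of at least 1.32 over all genes, and pairs with replicate 1 with 67.4 to 151.3, so that the libraries of each pair differed by more than sampling noise.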
